A study of Homo sapiens with 4 samples.

Results

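The 99 genes described here are the nuclear genes of oxidative phosphorylation, the pathway that makes ATP in mitochondria. They were chosen by name alone, among 40877 names of 1 gene in the deposited gene table, as those that begin with NDUFA, NDUFB, NDUFC, NDUFS, NDUFV, SDH, UQCR, COX4, COX5, COX6, COX7, COX8 or ATP5. A further 19 names with a pseudogene ending or a hyphen were left out by the rule. By known function, 75 are core subunits: 37 of complex I, 4 of complex II, 8 of complex III, 11 of complex IV (NDUFA4 among them) and 15 of complex V. The others are 11 assembly factors (NDUFAF and SDHAF genes), 8 isoforms known to be restricted to certain tissues, and 5 related names. Every member had a count in at least 1 library, 94 had at least 100 counts in a library, and 5 did not: COX4I2, COX6A2, COX6B2, ATP5L2 and ATP5J2LP.

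RNA was read from single cells with the 10x Genomics 5′ chemistry in 2 human cancer lines, H1299 (non-small cell lung cancer) and HCT116 (colorectal cancer), both at passage 5 to 10. Each line was given the solvent DMSO, or 500 nM DAC for 72 h together with 500 nM SB939 for 18 h, in medium renewed every 24 h. DAC (decitabine) blocks DNA methyltransferases, and SB939 blocks histone deacetylases. Each combination was 1 library, called DMSO or DAC+SB, so no test between groups was made and no difference has a replicate check. Cells of 1 library share a culture and a capture and are not replicates.

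H1299 gave 3578 cells with DMSO and 3726 with DAC+SB, HCT116 gave 3658 and 4327, and the libraries had 38927267 to 64524196 counts in all. The HCT116 DAC+SB library was the shallowest, at a median of 8449 counts per cell against 15784.5 to 17369.5 in the others, and 131 cell barcodes occurred in 2 libraries. Of 10 markers fixed for each line, the HCT116 markers summed to 0.325 and 13.7 CPM (counts scaled to a library total of 1e+06) in H1299, with DMSO and with DAC+SB, and to 124 and 80.8 CPM in HCT116. The H1299 markers summed to 2879 and 1405 CPM in H1299 and to 246 and 329 CPM in HCT116, so both sums were higher in the labelled line under either treatment. VIM made up most of the H1299 sum in the H1299 libraries (2282 and 1151 CPM). Single markers differed: CDX1 and GPX2 (for HCT116) and COL4A1 (for H1299) were at or near 0 in all libraries, and with DAC+SB LGALS4 was at 1.60 CPM in H1299 against 1.08 CPM in HCT116, and COL4A2 at 0.336 against 2.29 CPM. Mitochondrial genes took a median of 8.33% and 8.87% of a cell's counts in H1299 and 15.8% and 18.6% in HCT116.

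As background, complex I (NADH dehydrogenase) and complex II (succinate dehydrogenase) pass electrons to ubiquinone, complex III passes them to cytochrome c, and complex IV (cytochrome c oxidase) passes them to oxygen. Complexes I, III and IV pump protons, and complex V (ATP synthase) uses the resulting gradient to make ATP. Except for complex II, each complex joins nuclear subunits with subunits encoded by mitochondrial DNA. Several complex IV subunits have a second gene with tissue-restricted use, such as COX8C and COX7B2 in testis and COX7A1 in heart and skeletal muscle.

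The sequences below are the promoters of 2 such pairs, a broadly used gene followed by its restricted paralog, shown because both restricted paralogs were among the members with the widest ratios between libraries. Each runs from 250 bases before to 50 bases after the gene's start, 5′ to 3′ on the gene's own strand, from RefSeq on GRCh38.p14: COX8A (chr11:63974370-63974669, plus strand), COX8C (chr14:93346932-93347231, plus strand), COX7B (chrX:77899218-77899517, plus strand) and COX7B2 (chr4:46909196-46909495, minus strand). Capitals mark each CG dinucleotide, the unit in which DNA methyltransferases methylate cytosine.
COX8A: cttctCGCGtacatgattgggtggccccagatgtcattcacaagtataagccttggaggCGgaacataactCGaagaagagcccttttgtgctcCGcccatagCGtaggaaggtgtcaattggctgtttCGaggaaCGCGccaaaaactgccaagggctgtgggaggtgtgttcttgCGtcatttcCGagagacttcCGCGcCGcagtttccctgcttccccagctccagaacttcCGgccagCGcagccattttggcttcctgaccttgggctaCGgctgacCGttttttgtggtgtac
COX8C: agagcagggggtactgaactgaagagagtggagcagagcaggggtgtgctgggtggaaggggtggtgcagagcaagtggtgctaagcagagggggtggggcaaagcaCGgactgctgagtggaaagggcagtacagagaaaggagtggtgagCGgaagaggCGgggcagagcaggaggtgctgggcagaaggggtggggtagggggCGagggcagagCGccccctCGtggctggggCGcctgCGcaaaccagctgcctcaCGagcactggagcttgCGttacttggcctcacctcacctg
COX7B: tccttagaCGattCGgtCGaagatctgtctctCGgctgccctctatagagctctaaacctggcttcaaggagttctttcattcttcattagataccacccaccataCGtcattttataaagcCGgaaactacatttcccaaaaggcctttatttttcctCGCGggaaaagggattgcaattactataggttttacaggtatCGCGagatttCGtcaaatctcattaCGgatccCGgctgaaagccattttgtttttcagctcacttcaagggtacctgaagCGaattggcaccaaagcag
COX7B2: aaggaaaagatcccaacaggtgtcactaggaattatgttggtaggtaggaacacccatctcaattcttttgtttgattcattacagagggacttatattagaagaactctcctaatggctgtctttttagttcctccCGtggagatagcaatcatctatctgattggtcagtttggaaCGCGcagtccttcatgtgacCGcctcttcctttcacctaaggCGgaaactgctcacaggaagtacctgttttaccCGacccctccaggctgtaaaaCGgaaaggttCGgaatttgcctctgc
COX8A held 18 such dinucleotides and COX8C 10, and COX7B held 14 and COX7B2 8. Over the 63 core subunits with a promoter sequence the median was 23, over 5 restricted isoforms it was 10 (range 5 to 31), and over all 35116 promoters of that length it was 14. DNA methylation was not measured.

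Core promoters were also searched, on both strands, for the letters of motifs known from respiratory genes. The NRF1 letters GCGCATGC or GCGCACGC were in 17 of 63 core promoters (27.0%), against 6.20% of all promoters. The ETS letters CCGGAAG, bound by GABPA, were in 19 (30.2%), against 10.3%, and the YY1 letters AAGATGGC in 12 (19.0%), against 2.89%. The SP1 letters GGGCGGGG stood in 14 (22.2%), against 22.8%, and TATAAA in 5 (7.94%), against 11.5%. The promoters of the 5 restricted isoforms held none of the NRF1, ETS, YY1 or SP1 letters. The ETS letters end with AAG and the YY1 letters begin with it, so both can be counted over shared bases. The NRF1, ETS and SP1 letters contain CG, and core promoters held a median of 23 CG dinucleotides against 14 over all promoters. All promoters were not matched to the core ones on CG, so the shares at equal CG were not tested. A match describes these letters and is not a binding site.

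In H1299, the 99 members together took slightly more of the library with DAC+SB than with DMSO, and the same held in HCT116. Their summed share of all counts was 2.78% with DMSO against 2.99% with DAC+SB for H1299, and 2.24 against 2.40% for HCT116. The log2 ratio of DAC+SB over DMSO was 0.10 (0.10 to 0.11) in H1299 and 0.10 (0.10 to 0.11) in HCT116, where the range is an exact conditional binomial 95% interval for counting error only. The difference between the lines was -0.000719. HCT116 had the lower share in both treatments: H1299 over HCT116 was 0.31 with DMSO and 0.31 with DAC+SB. The sums are a share of each library, so they move with everything else in it. Scaled by median-of-ratios size factors, which shift every gene by 0.18 in H1299 and 0.31 in HCT116, the log2 ratios of the sum were 0.29 and 0.42, and H1299 over HCT116 was 0.26 with DMSO but 0.13 with DAC+SB. As a mean over cells the log2 ratio was 0.068 for H1299 and 0.013 for HCT116. The HCT116 mean over cells with joined names was lower after DAC+SB, at 2.71% with DMSO and 2.68% with DAC+SB.

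Some counts could not be given to 1 gene. The table has names that join several genes, and 24 of them hold a member. They touch 21 members, and for 15 members they hold over 50% of the counts (ATP5J2, ATP5O, COX6A1, COX6B2, COX8A, NDUFA11, NDUFA13, NDUFA7, NDUFB8, NDUFC2, NDUFS3, NDUFV2, SDHAF2, SDHD and UQCR11). With joined names added, the summed share was 3.31% with DMSO against 3.57% with DAC+SB for H1299, and 2.69 against 2.84% for HCT116, and the log2 ratios were 0.11 and 0.08. Values below that include joined counts are said to, since these may in part belong to the other gene.

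The complexes did not move alike. Complex IV had the largest log2 ratio of its summed level among the 5 complexes in both lines, and complex II the lowest. With names of 1 gene, complex IV stood at 0.740% with DMSO against 0.883% with DAC+SB for H1299, and 0.522 against 0.694% for HCT116, a log2 ratio of 0.26 and 0.41 (joined names added, 0.26 and 0.35). Complex II stood at 0.0249% with DMSO against 0.0232% with DAC+SB for H1299, and 0.0302 against 0.0184% for HCT116, a log2 ratio of -0.10 and -0.72. Complexes I, III and V lay between 0.03 and 0.05 in H1299 and between -0.03 and 0.04 in HCT116, close to no difference, and with joined names added complex III was at -0.11 in HCT116. Under size factors complexes I and III were at 0.22 and 0.23 in H1299 and 0.35 and 0.32 in HCT116, complex IV was at 0.44 and 0.72, while complex II turned to 0.08 in H1299 and stayed below 0 in HCT116 at -0.41, and complex V turned to 0.29 in HCT116.

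**Figure D1:**
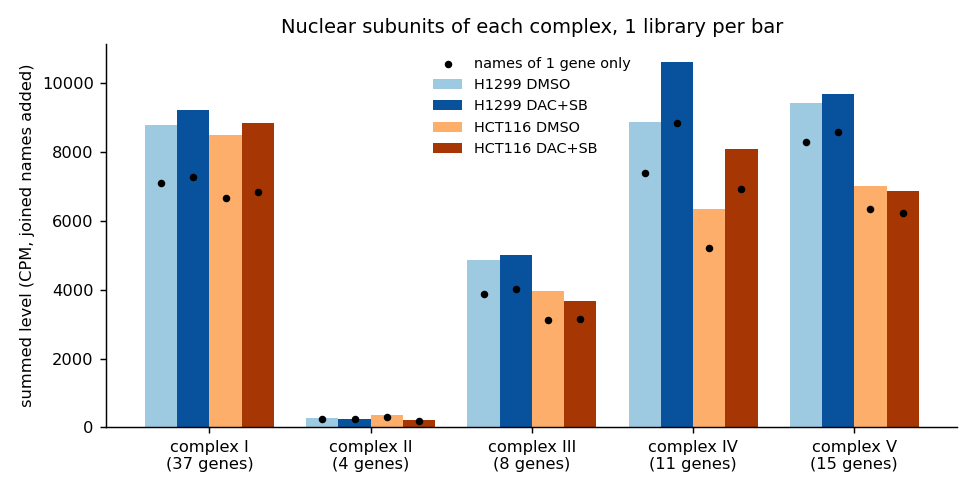
Summed level of the nuclear subunits of each complex in CPM (linear axis from 0), 1 bar for each library with joined names added and a black point for names of 1 gene only. With names of 1 gene, complex IV takes 0.740% of counts with DMSO against 0.883% with DAC+SB for H1299, and 0.522% against 0.694% for HCT116, and the other complexes stay nearly level except the small complex II in HCT116.

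A member was counted as past 2-fold if its ratio was at least 2 or at most 0.5 and the higher library had 100 counts or more. In H1299, 6 members were higher and 3 lower of 94, where 18.3% and 7.34% of all 14610 genes with that many counts were, 25.6% in all. In HCT116, 4 were higher and 9 lower of 92, where 16.2% and 20.0% of 13539 genes were, 36.2% in all. Under size factors HCT116 had 6 higher and 6 lower, and NDUFA7 (-0.81), SDHD (-0.99) and SDHAF2 (-0.69) were no longer past 2-fold. The median log2 ratio of these members was 0.0455 in H1299, against -0.07 over all genes, and -0.0435 in HCT116, against -0.23. With joined names added, 6 were higher and 1 lower of 95 in H1299, and 3 higher and 8 lower of 93 in HCT116. In both lines the members' share past 2-fold was below that of all genes meeting the same 100-count minimum. The shares of all genes are for names of 1 gene and library totals, and are not given under size factors or with joined names. That wider set was not matched to the members on level, so whether the share is lower at equal counts was not tested. Restricted isoforms made up 4 of the 6 higher members in H1299 and 2 of the 4 in HCT116. Apart from COX7B2 in H1299, these isoforms reached 100 counts only with DAC+SB, so they could not have been counted as lower.

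Among the 75 core subunits with joined names added, 32 had a ratio above 1 in both lines and 30 below 1 in both. Another 7 were higher in H1299 and lower in HCT116, and 6 the reverse. The log2 ratios of the lines were related with Pearson's r at 0.76 and Spearman's rho at 0.79 across these 75 genes, a description only, since genes share a library and are not independent. The 2 ratios come from 4 different libraries.

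**Figure D2:**
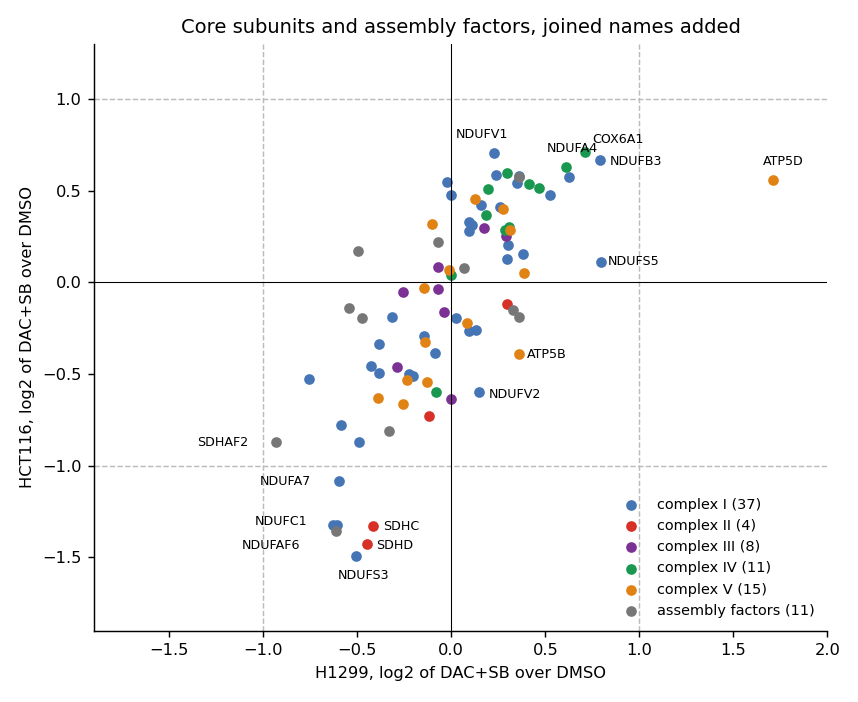
Log2 ratio of DAC+SB over DMSO in H1299 (horizontal axis) and HCT116 (vertical axis) for the 75 core subunits and 11 assembly factors, joined names added, 1 point for each gene coloured by complex; dashed lines mark 2-fold. ATP5D stands alone on the right at 1.71 and 0.56, and NDUFC1, NDUFS3, SDHC, SDHD and NDUFAF6 are among the lowest, between -1.49 and -1.32 in HCT116.

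Complex I has the most members. With joined names added, 20 of its 37 subunits had a ratio above 1 in H1299 and 17 below, and in HCT116 18 were above and 19 below. NDUFC1, a small membrane-arm subunit, was at 408 CPM with DMSO against 264 CPM with DAC+SB for H1299, and 416 against 166 CPM for HCT116, log2 ratios of -0.63 (-0.66 to -0.60) and -1.32 (-1.36 to -1.28). It was lower with DAC+SB in both lines and past 2-fold in HCT116. The difference between the lines was 0.69 (0.65 to 0.74). NDUFA7 was past 2-fold lower in HCT116 on its own name (-1.12), where it had 269 and 77 counts, and with joined names added it was at 270.3 CPM with DMSO against 178 CPM with DAC+SB for H1299, and 194 against 91.7 CPM for HCT116, log2 ratios of -0.60 and -1.08.

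NDUFV2, an iron-sulfur subunit of the arm that binds NADH, shows how far joined names matter. Its own name held 2302 counts with DMSO against 318 counts with DAC+SB for H1299, and 1109 against 43 counts for HCT116, log2 ratios of -2.81 and -4.00. The joined name with RP11-21J18.1 held 15820 counts with DMSO against 19127 counts with DAC+SB for H1299, and 13110 against 5793 counts for HCT116. With both, NDUFV2 was at 281 CPM with DMSO against 311 CPM with DAC+SB for H1299, and 227 against 149.9 CPM for HCT116, so the H1299 ratio turned to 0.15 and the HCT116 ratio to -0.60. In H1299 the counts under the 2 names went opposite ways.

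NDUFS3 had modest ratios on its own name (-0.27 and -0.34) and lower ones with the joined name NDUFS3_PTPMT1 added (-0.51 and -1.49). That joined name had 5556 counts with DMSO against 3167 counts with DAC+SB for H1299, and 13289 against 1557 counts for HCT116, and how much of it belongs to PTPMT1 was not tested.

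On the higher side, the complex I calls rested on few counts of the members' own names. NDUFC2 was past 2-fold in H1299 on 293 and 573 counts of its own name (1.02), and with joined names added its log2 ratios were 0.63 and 0.57. NDUFA11 was past 2-fold in HCT116 on 351 and 564 counts (1.37), against 0.36 and 0.58 with joined names. NDUFB8 was at -0.27 and 0.95 on its own name and at 0.09 and 0.28 with joined names. The subunits with most counts did not pass 2-fold in either line. NDUFB9 was at 772 CPM with DMSO against 982 CPM with DAC+SB for H1299, and 757 against 1103 CPM for HCT116, and NDUFB2 at 649 CPM with DMSO against 496 CPM with DAC+SB for H1299, and 376 against 298 CPM for HCT116, so that NDUFB9 was higher and NDUFB2 lower with DAC+SB in both lines. NDUFS6 was also lower in both, at log2 ratios of -0.59 and -0.78.

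Complex II has only nuclear subunits, and in HCT116 it was the complex whose genes were lowest with DAC+SB. SDHC, a membrane anchor, was at 58.1 CPM with DMSO against 43.6 CPM with DAC+SB for H1299, and 69.9 against 27.8 CPM for HCT116, log2 ratios of -0.41 (-0.49 to -0.34) and -1.33 (-1.43 to -1.23). SDHD, the other anchor, was at 52.3 CPM with DMSO against 38.4 CPM with DAC+SB for H1299, and 66.7 against 24.8 CPM for HCT116 with joined names added, log2 ratios of -0.45 and -1.43 (-0.53 and -1.30 on its own name). Both anchors passed 2-fold in HCT116 and not in H1299, and SDHD not under size factors on its own name. SDHB, the iron-sulfur subunit, had log2 ratios of -0.12 and -0.73, and SDHA, the flavoprotein that oxidises succinate, 0.30 and -0.12. All 4 had a lower ratio in HCT116 than in H1299. The difference between the lines in the summed log2 ratio was 0.62 (0.57 to 0.67), an interval for counting error only.

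The subunits of complex III differed little. None of 8 passed 2-fold in either line, where 25.6% of all genes did in H1299 and 36.2% in HCT116. UQCRQ was at 982 CPM with DMSO against 1203 CPM with DAC+SB for H1299, and 805 against 959 CPM for HCT116, and UQCRB had log2 ratios of 0.17 and 0.29, so both were slightly higher with DAC+SB in each line. UQCRH, the hinge protein near cytochrome c1, was at 1254 CPM with DMSO against 1222 CPM with DAC+SB for H1299, and 950.0 against 849 CPM for HCT116, and UQCR10 was lower in both, at -0.29 and -0.46. UQCR11 was at 0.16 and -0.91 on its own name, which held 1446 and 477 counts in HCT116, and at -0.00 and -0.63 with joined names added.

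In complex IV most subunits were slightly higher with DAC+SB. With joined names added, 9 of 11 had a ratio above 1 in H1299 and 10 of 11 in HCT116, with medians of 0.30 and 0.51, and under size factors 11 and 10 did. COX4I1, the largest nuclear subunit, was at 922 CPM with DMSO against 1057 CPM with DAC+SB for H1299, and 792 against 1128 CPM for HCT116, log2 ratios of 0.20 and 0.51. NDUFA4, named after its values were seen, was at 616 CPM with DMSO against 938 CPM with DAC+SB for H1299, and 533 against 825 CPM for HCT116, log2 ratios of 0.61 and 0.63. It was first assigned to complex I and is now known as a complex IV subunit. COX7C was nearly level at 1446 CPM with DMSO against 1444 CPM with DAC+SB for H1299, and 996 against 1024 CPM for HCT116. COX8A was the member below 1 in both lines, with -1.29 and -0.58 on its own name and -0.08 and -0.60 with joined names.

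COX6A1 was past 2-fold higher in HCT116 on its own name only. That name, which has no numbered feature, held 422 counts with DMSO against 633 counts with DAC+SB for H1299, and 292 against 3456 counts for HCT116, log2 ratios of 0.63 and 4.25. It was counted in 7.30% of HCT116 DMSO cells and 46.3% of HCT116 DAC+SB cells, or 2.08% and 22.4% after each cell was thinned to 3300 counts. Most COX6A1 counts stood under the joined name AL021546.6_COX6A1, with 30359 counts with DMSO against 48150 counts with DAC+SB for H1299, and 31582 against 28926 counts for HCT116. With both, COX6A1 was at 477 CPM with DMSO against 781 CPM with DAC+SB for H1299, and 509 against 832 CPM for HCT116, and both lines had a log2 ratio of 0.71. The HCT116 DAC+SB library thus stood apart in the counts given to COX6A1 alone and not in the sum.

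Complex V was nearly level in sum, with 1 member that stood out. ATP5D, the delta subunit of the central stalk of ATP synthase (chromosome 19, 1241746 to 1244826, plus strand, GENCODE v29 on GRCh38), was at 74.7 CPM with DMSO against 244 CPM with DAC+SB for H1299, and 311 against 458 CPM for HCT116. The log2 ratio was 1.71 (1.66 to 1.75) in H1299, past 2-fold, and 0.56 (0.53 to 0.59) in HCT116, a difference of 1.15 (1.09 to 1.20). The H1299 DMSO library was the low one: H1299 over HCT116 was -2.06 with DMSO and -0.91 with DAC+SB. Among its features, feature 1 had 1199 counts with DMSO and 10878 with DAC+SB for H1299, against 13285 and 14830 for HCT116. The counts without a number were 3620 and 4354 for H1299 and 6179 and 3013 for HCT116. ATP5D was counted in 65.6% of H1299 DMSO cells and 91.2% of H1299 DAC+SB cells, or 21.4% and 52.7% after thinning.

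**Figure D3:**
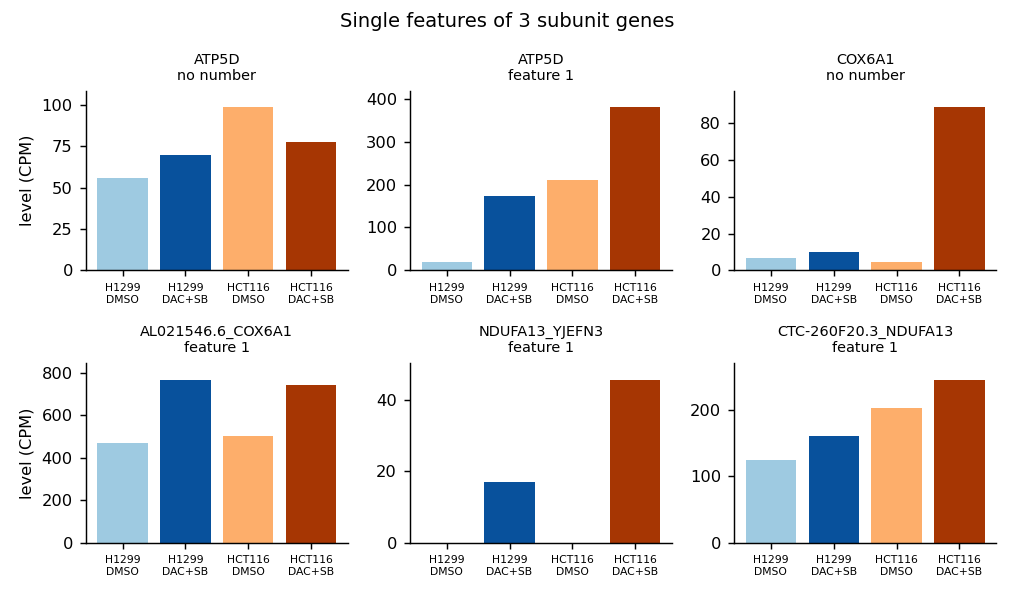
Level in CPM (linear axis from 0, a scale for each panel) of single features of ATP5D, COX6A1 and NDUFA13 in the 4 libraries, 1 bar for each library. Feature 1 of ATP5D is lowest in H1299 DMSO, COX6A1 without a number is highest in HCT116 DAC+SB, and feature 1 of NDUFA13_YJEFN3 is not listed in either DMSO library.

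The other ATP synthase members stayed within 2-fold in both lines. ATP5E, the epsilon subunit, was at 2750.2 CPM with DMSO against 2911 CPM with DAC+SB for H1299, and 1569.8 against 1347 CPM for HCT116, log2 ratios of 0.08 and -0.22. ATP5L was higher with DAC+SB in both lines (0.27 and 0.40), and ATP5G1, one of 3 genes for the c subunit of the rotor, was lower in both (-0.39 and -0.63). ATP5I was at -0.15 and -0.03. ATP5J2 and ATP5O had few counts of their own names, with log2 ratios of -0.05 and -0.81 (ATP5J2) and of -0.25 and -0.91 (ATP5O), and with joined names added they were at -0.01 and 0.07 (ATP5J2) and at -0.14 and -0.33 (ATP5O).

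The widest ratios belonged to the tissue-restricted isoforms, whose counts were few or 0 with DMSO except for COX7B2 in H1299. Their sum was at 24.2 CPM with DMSO against 116 CPM with DAC+SB for H1299, and 1.07 against 46.5 CPM for HCT116. A numbered feature was never listed in a library with fewer than 10 counts, so an unlisted feature is not a count of 0, while counts without a number were listed from 1 count. Counts or ratios without a number are therefore given beside those of the whole gene where it has numbered features.

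COX8C, the testis isoform of subunit 8 (chromosome 14, 93347191 to 93348356, plus strand), had 3 counts with DMSO against 3288 counts with DAC+SB for H1299, and 5 against 980 counts for HCT116. It was nearly uncounted in both DMSO libraries and well counted in both DAC+SB libraries. The log2 ratio was 10.15 (8.60 to 12.42) in H1299 and 8.30 (7.07 to 9.93) in HCT116, intervals that cover counting error only. Feature 1, listed with 2396 counts in H1299 DAC+SB and 887 in HCT116 DAC+SB, was not listed with DMSO. Counts without a number were 3 and 892 for H1299, a ratio of 307 (105 to 1493). For HCT116 they were 5 and 93, a ratio of 29.9 (12.4 to 94.3). COX8C was counted in 46.9% of H1299 DAC+SB cells and 16.8% of HCT116 DAC+SB cells, against 0.0838% and 0.137% of DMSO cells. After thinning to 3300 counts per cell these shares were 14.7% and 7.67%, against 0.0279% and 0.0547%.

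COX7B2, the restricted isoform of subunit 7B (chromosome 4, 46734827 to 46909235, minus strand), had 1487 counts with DMSO against 3253 counts with DAC+SB for H1299, and 10 against 675 counts for HCT116. Unlike COX8C it was already counted in H1299 with DMSO, where the level was 23.0 CPM against 0.160 CPM in HCT116. The log2 ratio of DAC+SB over DMSO was 1.18 (1.09 to 1.27) in H1299 and 6.76 (5.88 to 7.83) in HCT116, a difference of -5.59 (-6.49 to -4.68). For HCT116, feature 1 held 548 of the treated counts, while the DMSO library lists none for it. The 0.160 CPM, the 6.76 and the difference take that feature as 0, and the intervals do not cover this. From counts without a number the ratio was 1.94 (1.72 to 2.19) in H1299, just under 2-fold, and 20.4 (10.8 to 43.6) in HCT116. As log2 these ratios were 0.96 and 4.35, a smaller gap between the lines than for the whole gene. The gene was counted in 20.8% and 44.8% of H1299 cells (6.32% and 13.8% after thinning) and in 0.137% and 12.4% of HCT116 cells (0.0273% and 4.94%). COX7B, the broadly used paralog, was at 576 CPM with DMSO against 656 CPM with DAC+SB for H1299, and 337 against 434 CPM for HCT116, log2 ratios of 0.19 and 0.37.

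COX7A1, the heart and muscle isoform of subunit 7A (chromosome 19, 36150922 to 36152869, minus strand), had no count listed in either DMSO library and had 460 counts in H1299 DAC+SB and 37 in HCT116 DAC+SB. Its counts without a number were 136 and 20, at least 46.9-fold and 10.7-fold above the level that 3 counts would give in the DMSO library. It was counted in 9.58% of H1299 DAC+SB cells and 0.716% of HCT116 DAC+SB cells. COX7A1 was higher in H1299 than in HCT116 with DAC+SB, at a log2 ratio of 2.95 (2.47 to 3.48).

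The remaining restricted isoforms had few counts. COX6B2, the testis isoform of subunit 6B, had 5 counts with DMSO against 64 counts with DAC+SB for H1299, and 16 against 61 counts for HCT116, and the joined name COX6B2_CTD-2105E13.6 had 1 count with DMSO against 200 counts with DAC+SB for H1299, and 35 against 152 counts for HCT116, so both were higher with DAC+SB in each line. COX4I2, an isoform known from lung, had 0 counts with DMSO against 40 counts with DAC+SB for H1299, and 1 against 19 counts for HCT116, and COX6A2, the heart and muscle isoform of subunit 6A, had 4 counts with DMSO against 40 counts with DAC+SB for H1299, and 0 against 2 counts for HCT116. Without a number, COX4I2 had 0 and 28 counts in H1299, at least 9.65-fold, and a ratio of 30.6 (4.86 to 1270.3) in HCT116 on 1 and 19 counts. COX6A2 had 4 and 9 counts without a number in H1299, a ratio of 2.33 (0.649 to 10.3), an interval that includes no difference. NDUFA4L2, a hypoxia-responsive relative of NDUFA4, had 49 counts with DMSO against 106 counts with DAC+SB for H1299, and 21 against 30 counts for HCT116, log2 ratios of 1.16 (0.66 to 1.68) and 1.20 (0.35 to 2.08). Its counts without a number in H1299 were 22 and 59, a log2 ratio of 1.47 (0.74 to 2.25). ATP5L2 was the only one of the 8 with a lower level (CPM) with DAC+SB in both lines, on 13 counts with DMSO against 10 counts with DAC+SB for H1299, and 14 against 5 counts for HCT116, and both of its intervals include no difference. Markers fixed for the other line moved too. In H1299 the 10 HCT116 markers summed to 0.325 CPM with DMSO and 13.7 CPM with DAC+SB, and GPX2 and KRT20 stayed at 0. In HCT116 the 10 H1299 markers summed to 246 CPM with DMSO and 329 CPM with DAC+SB. With DAC+SB, VIM (47.0 to 265 CPM), CDH2 (0 to 4.01 CPM), FBN1, SPARC, COL4A1, COL4A2 and TGFBI were higher there, the last 5 at 0.283 to 2.41 CPM, and CAV1 (161 to 35.7 CPM), AXL (22.2 to 2.16 CPM) and ZEB1 (15.2 to 14.1 CPM) were lower. Their part in the isoform counts was not tested.

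**Figure D4:**
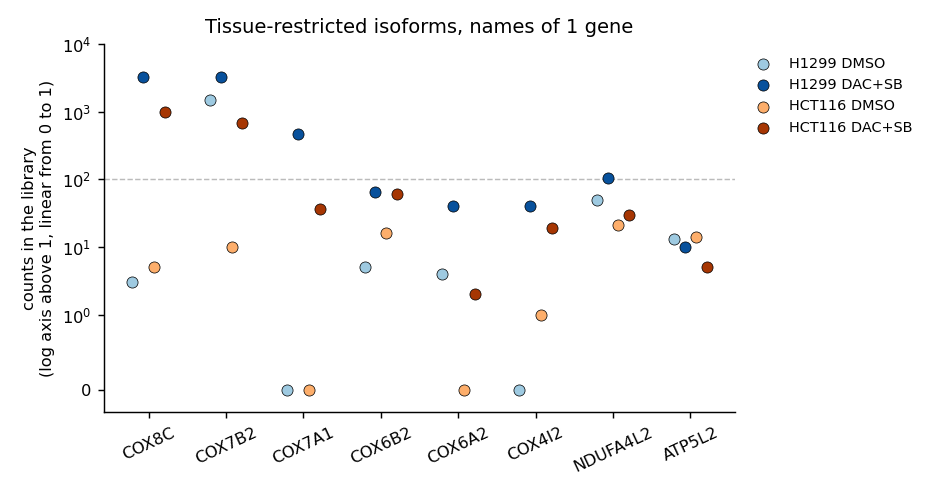
Counts of the 8 tissue-restricted isoforms in each library (names of 1 gene; log axis above 1, linear from 0 to 1; the dashed line marks 100 counts), 1 point for each library. COX8C lies at 3 and 5 counts in the DMSO libraries, far under its 3288 and 980 in the treated ones, and COX7B2 is already at 1487 counts in H1299 DMSO.

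Of the 11 assembly factors, which help to build complexes I and II without remaining in them, none passed 2-fold in H1299, where 25.6% of all genes did. In HCT116 none was higher, against 16.2% of all genes, and 2 were lower, near the 20.0% of all genes. NDUFAF6 was at 57.0 CPM with DMSO against 37.3 CPM with DAC+SB for H1299, and 46.5 against 18.2 CPM for HCT116, log2 ratios of -0.61 (-0.69 to -0.54) and -1.36 (-1.48 to -1.24). SDHAF2, which attaches the flavin to SDHA, was at 5.78 CPM with DMSO against 3.48 CPM with DAC+SB for H1299, and 3.19 against 1.59 CPM for HCT116 on its own name, with log2 ratios of -0.93 and -0.87 with joined names added. NDUFAF1 was higher in both lines (0.36 and 0.57), and NDUFAF2 lower in both (-0.47 and -0.20). NDUFAF3 was at 0.36 and -0.19, and SDHAF3 at 0.33 and -0.15, higher in H1299 and lower in HCT116. Under size factors the HCT116 log2 ratios of NDUFAF2, NDUFAF3 and SDHAF3 turned to 0.12, 0.12 and 0.16.

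Among the related names, ATP5SL, now called DMAC2 and known from complex I assembly, was past 2-fold lower in both lines. It was at 41.8 CPM with DMSO against 15.8 CPM with DAC+SB for H1299, and 34.6 against 11.5 CPM for HCT116, log2 ratios of -1.40 (-1.51 to -1.30) and -1.59 (-1.74 to -1.44). ATP5S was at -0.49 and -0.39. COX7A2L, which joins complexes III and IV into supercomplexes, was nearly level at 246 CPM with DMSO against 263 CPM with DAC+SB for H1299, and 162 against 186 CPM for HCT116, and UQCRHL, a retained copy of UQCRH, had log2 ratios of 0.22 and 0.46. UQCRHL is so close to UQCRH that reads may be split between them. ATP5J2LP, which is annotated as a pseudogene but kept by the rule, had 2 and 1 counts in H1299 and 0 in HCT116.

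Other genes of the pathway, from lists drawn up beside the members, are given next. Of all genes meeting the 100-count minimum, not matched on level, 18.3% were past 2-fold higher and 7.34% lower in H1299. In HCT116, 16.2% were higher and 20.0% lower. Of 5 listed subunits and carriers outside the name rule, only C14orf2, a small ATP synthase subunit, passed 2-fold, and only in HCT116, at 844 CPM with DMSO against 1470.4 CPM with DAC+SB for H1299, and 292 against 621 CPM for HCT116. CYC1, the cytochrome c1 of complex III, was lower with DAC+SB, at log2 ratios of -0.26 and -0.96. None of 35 other assembly factors was past 2-fold higher in either line, below the shares of all genes. Lower were 3 in H1299 (COX10, TMEM126A and TMEM126B) and 8 of 34 in HCT116, near the shares of all genes. Their medians were -0.26 and -0.49. Of 77 mitochondrial ribosome genes none was past 2-fold higher, and 11 were lower in H1299 and 21 in HCT116, with medians of -0.46 and -0.50. Of 13 tricarboxylic acid cycle genes, which feed complexes I and II, SUCLG2 alone was past 2-fold, lower in HCT116. Their medians were -0.21 and -0.24, against -0.07 and -0.23 over all genes, while the log2 ratios of their sum were 0.05 and 0.14. Import genes had medians of -0.29 and -0.31, with none higher and 2 and 5 of 22 lower, the latter near the shares of all genes. Size factors shift every gene by 0.18 in H1299 and 0.31 in HCT116, so the medians of all these lists depend on the scaling.

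Regulators of mitochondrial genes had medians of -0.57 in H1299 and -0.55 in HCT116, against -0.07 and -0.23 over all genes. None was past 2-fold higher, where 18.3% and 16.2% of all genes were. Lower were 2 of 13 in H1299 and 2 of 12 in HCT116, where 7.34% and 20.0% of all genes were. PPRC1, a coactivator related to PGC-1, was past 2-fold lower in both lines, at 22.9 CPM with DMSO against 7.11 CPM with DAC+SB for H1299, and 48.8 against 15.1 CPM for HCT116. MYC passed 2-fold in H1299 (-1.21 and -0.82) and YY1 in HCT116 (-0.78 and -1.58). The other listed regulators did not pass 2-fold with at least 100 counts. Cytosolic ribosomal protein genes had medians of 0.01 and -0.06. In H1299, 1 of 84 was higher and 1 lower, where 18.3% and 7.34% of all genes were. In HCT116, 4 of 85 were higher and 1 lower, where 16.2% and 20.0% of all genes were.

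Mitochondrially encoded subunits, the partners of the members in complexes I, III, IV and V, had 10 names of 1 gene. None passed 2-fold, where 25.6% of all genes did in H1299 and 36.2% in HCT116. Their median log2 ratio was 0.07 in H1299 and 0.36 in HCT116, or 0.04 and 0.30 with joined names added. Joined names held most counts of some of them, such as MT-CO2, with 99225 counts of its own and 588541 joined in H1299 DMSO. All names that begin with MT- took 9.50% of counts with DMSO and 9.35% with DAC+SB in H1299. In HCT116 they took 17.4% and 18.2%. Per cell, after thinning to 3300 counts, the members took a median of 2.76% of counts in H1299 DMSO cells against 2.88% in H1299 DAC+SB cells. For HCT116 the medians were 2.24% and 2.33%. The 10 mitochondrially encoded names, without joined names, took 1.79% and 1.97% in H1299 and 2.39% and 3.27% in HCT116. Thinning dropped 402 cells, all of them from HCT116 with DAC+SB, and unthinned the members' medians were 2.77%, 2.90%, 2.27% and 2.29% in the same order. The spread over thinned cells was wider than the difference between treatments. For the members, the middle 50% of cells ran from 2.39% to 3.12% in H1299 DMSO and from 2.45% to 3.33% in H1299 DAC+SB. In HCT116 it ran from 1.97% to 2.55% with DMSO and from 1.88% to 2.76% with DAC+SB. This spread includes counting error at 3300 counts per cell and is not a test of the difference.

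**Figure D5:**
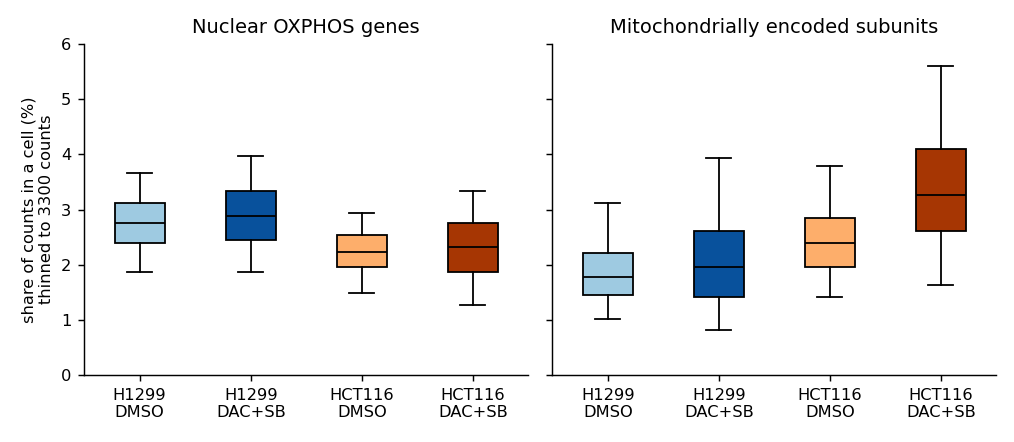
Share of a cell's counts (%), after thinning each cell to 3300 counts, held by the 99 nuclear genes (left) and by 10 mitochondrially encoded subunits (right) in the 4 libraries; boxes span the quartiles, the line is the median and whiskers run from the 5th to the 95th percentile of cells. The nuclear boxes of the 2 treatments overlap in each line, while the mitochondrial median is highest in HCT116 DAC+SB at 3.27%. Joined names are left out of both panels.

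Between the lines, several subunits kept their order in both treatments. With DMSO, 8 members were past 2-fold higher in H1299 than in HCT116 and 2 lower, of 91, where 20.5% and 15.2% of all 13796 genes were, 35.7% in all. NDUFA10 was the highest of the core subunits with joined names added, at a log2 ratio of 1.48 (1.41 to 1.54) between the DMSO libraries and 1.78 (1.69 to 1.87) between the DAC+SB libraries, and its level was 115 CPM with DMSO against 100.1 CPM with DAC+SB for H1299, and 41.5 against 29.1 CPM for HCT116. On names of 1 gene, NDUFV2 (2.21) and ATP5J2 (1.80) were above it with DAC+SB. NDUFA12 was at 1.21 and 1.43, NDUFB1 at 1.06 and 0.90, and ATP5I at 1.18 and 1.06. NDUFAB1, the mitochondrial acyl carrier protein, was lower in H1299, at -1.13 and -0.91.

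With DAC+SB, 17 members were past 2-fold higher in H1299 and 3 lower, of 94, where 25.4% and 12.1% of all 14875 genes were, 37.5% in all. Under size factors these counts were 8 and 6, so the number on each side depends on the scaling. NDUFB6 was among the 3 lower ones, at -0.98 with DMSO and -1.18 with DAC+SB. ATP5E (1.11) and NDUFS6 (1.17) passed 2-fold with DAC+SB and were at 0.81 and 0.98 with DMSO. Complex II changed sides: its summed level in H1299 over HCT116 was -0.28 with DMSO and 0.34 with DAC+SB.

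Some numbered features were listed in only 1 library of a line. Of the members' 87 numbered features, H1299 had 80 listed under both treatments and HCT116 79. NDUFB3 feature 2 had 5874 counts in H1299 DMSO and was not listed elsewhere, while NDUFB3 feature 1 went from 3336 to 11357 counts in H1299. NDUFV3 feature 2 had 1983 counts in H1299 DAC+SB and was not listed elsewhere, while feature 1 went from 2665 to 499. As whole genes, NDUFB3 had a log2 ratio of 0.79 and NDUFV3 of -0.02 in H1299. What the numbers stand for was not stated in any source used.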

How the data were processed

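The deposited tables hold whole-number counts per gene feature and cell, and per transposable element (TE) locus and cell; the authors made both from 5′ single-cell reads, and the submitters' processing notes name CASAVA, STAR and the builds GRCh38 and hg38, with no version or role. The annotation, the counting tool, the filter on cells and whether counts are of unique molecular identifiers are not given in any source used here, so values are called counts. Each cell name carries its library. The members and lists were chosen with earlier results of these data known.

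Counts were summed per name and library in Python 3.11.15 (numpy 2.4.6, scipy 1.17.1, pandas 2.3.3) and divided by the library's gene and TE counts (CPM). Ratios carry exact conditional binomial 95% intervals, and differences between lines a normal approximation; a gene at 0 was taken at 3 counts, which makes the ratio a bound. All intervals cover counting error only. Every cell was kept, no doublet caller was run, and cells were thinned by a random draw to 3300 counts where shares of cells were compared. The fold calls and ratio intervals were tested on simulated counts that held counting error only. The thinning was not part of that test. Positions are from GENCODE v29; 78 members matched RefSeq by symbol and 21 by an older symbol, and 80 have a promoter sequence there.

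A member was named if it was past 2-fold in any comparison, had the highest or lowest ratio of its complex in a line, was among the 2 with most counts of its complex, was a tissue-restricted isoform or had under 100 counts in all libraries; others are said to be named after their values were seen, or stand in a group given whole. Alternatives were other denominators and size factors, joined names added, shared features only, cells left out, mean over cells, other fold and count limits, and core subunits only. COX7B, NDUFS3 and the features of NDUFA13, NDUFB3 and NDUFV3 were named after their values were seen. Of the members this rule names, 1 is not reported here.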

Additional observations from a re-analysis of the deposited data

Results flagged for a closer look

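Some members had a ratio of DAC+SB over DMSO above 1 in H1299 and below 1 in HCT116, or the reverse. With 1 library for each, the difference was not tested. On names of 1 gene, 8 of 75 core subunits were higher in H1299 and lower in HCT116 and 6 the reverse, so those listed are not all. The log2 ratios, H1299 first, were 0.05 and -0.03 for the sum of complex V, -0.05 and 0.04 for the sum of the related names, 0.08 and -0.22 for ATP5E, and 0.30 and -0.12 for SDHA. They were 0.36 and -0.19 for NDUFAF3, 0.33 and -0.15 for SDHAF3 and 0.16 and -0.91 for UQCR11, whose ratios with joined names added were -0.00 and -0.63. Under size factors the HCT116 ratios of ATP5E, SDHA, NDUFAF3, SDHAF3 and complex V turned to 0.091, 0.20, 0.12, 0.16 and 0.29, and the H1299 ratio of the related names to 0.13.

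Joined names are outside the sums of single genes, and 2 of them had most of their counts with DAC+SB in both lines. NDUFA13_YJEFN3 had 0 counts with DMSO against 1096 counts with DAC+SB for H1299, and 8 against 1805 counts for HCT116, while the other joined name of NDUFA13, CTC-260F20.3_NDUFA13, had 8931 counts with DMSO against 11386 counts with DAC+SB for H1299, and 13896 against 10279 counts for HCT116. COX6B2_CTD-2105E13.6 had 1 count with DMSO against 200 counts with DAC+SB for H1299, and 35 against 152 counts for HCT116. Feature 1 held 1051 and 1777 of the DAC+SB counts of NDUFA13_YJEFN3 and was not listed with DMSO, which is not a count of 0. Without a number this name had 0 and 45 counts in H1299, and 8 and 28 in HCT116, a log2 ratio of 2.49 there. Without a number COX6B2_CTD-2105E13.6 had 1 and 69 counts in H1299, and 16 and 50 in HCT116. To which gene of each pair these counts belong was not tested.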

How the results depend on the processing

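No paired analysis was possible because each group was 1 library and the labels carry no replicate numbers. For the same reason no replicate could be left out. The summed level of all members kept its direction in all 4 comparisons when 1 choice was changed at a time. With joined names and a mean over cells together, a combination chosen after seeing the data, HCT116 turned to -0.016, from 2.71% with DMSO to 2.68%, and H1299 was at 0.072. As log2, DAC+SB over DMSO in H1299 was 0.10, and 0.15 with gene counts only, 0.17 without mitochondrial and ribosomal protein genes in the denominator, 0.29 with size factors, 0.11 with joined names, 0.089 without the 5% of cells with most counts and 0.068 as a mean over cells. In HCT116 it was 0.10, and 0.18, 0.24, 0.42, 0.077, 0.073 and 0.013 in the same order, and 0.13 without cells above 25% mitochondrial counts. H1299 over HCT116 with DMSO was 0.31, and 0.21 without mitochondrial and ribosomal protein genes in the denominator, 0.26 with size factors, 0.30 with joined names, 0.31 with shared features, 0.30 without the 5% of cells with most counts, 0.28 without cells above 25% mitochondrial counts and 0.29 as a mean over cells. With DAC+SB it was 0.31, and 0.28 with gene counts only, 0.14, 0.13 and 0.33 under the next 3, 0.25 without cells above 25% and 0.35 as a mean over cells. The difference between lines, -0.001, was -0.036 with gene counts only, -0.070 without mitochondrial and ribosomal protein genes in the denominator, -0.13 with size factors, 0.031 with joined names, 0.016 without the 5% of cells with most counts, -0.031 without cells above 25% and 0.055 as a mean over cells.

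Counts of members past the fold moved as follows. The share of all genes is given only at 2-fold, for names of 1 gene, library totals and at least 100 counts. At other settings the counts are therefore not set beside all genes and describe only how the calls moved. With joined names, 1 was lower in H1299 in place of 3. At 1.5-fold there were 11 higher and 10 lower ones in H1299, 10 and 18 in HCT116, 23 and 8 between lines with DMSO, and 29 and 9 with DAC+SB. At 4-fold, 2 and 1 were left in H1299, 3 and 1 in HCT116, 1 and 1 with DMSO, and 2 and 1 with DAC+SB. At a minimum of 1 count, 8 were higher in HCT116. Without mitochondrial and ribosomal protein genes in the denominator 5 were higher between lines with DMSO, and with DAC+SB 8 were higher and 6 lower, as with size factors. Of 209 ratios of named members, joined names changed the sign of 11, size factors of 20 and the denominator without mitochondrial and ribosomal protein genes of 12. Those past 2-fold that turned did so with joined names: NDUFV2 in H1299 to 0.15, and SDHAF2 in H1299 over HCT116 with DAC+SB to -0.051. The causes were not tested. Depth limits the isoforms with few counts, and the HCT116 DAC+SB library is the least deep.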

Other observations

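The log2 ratio of DAC+SB over DMSO, with joined names added, was set against gene length across the 75 core subunits. The Spearman correlation with the gene's span in GENCODE v29 was -0.29 in H1299 and -0.30 in HCT116, against -0.12 and -0.13 over all protein-coding genes with a match. With the number of exons in the gene's longest transcript by bases it was -0.24 and -0.33, against -0.12 and -0.17. That transcript has 1 exon for ATP5D, COX4I1, COX6A1 and NDUFS7, and other transcripts of a gene were not used. With the length of the longest transcript it was -0.26 and -0.14, against -0.17 and -0.11. These correlations run across genes of the same libraries and are given as a description only.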
